A study of Mus musculus with 16 samples.

Results

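The genes that carry the IL-22 signal in epithelial cells were followed across small intestinal organoids: the receptor chains Il22ra1 and Il10rb, the kinases Jak1, Jak2 and Tyk2, the transcription factor Stat3, and Socs3, Cish and Pim1, which act downstream or as feedback. These 9 genes were chosen by name from knowledge of the pathway, with earlier results of these data known, from 49585 genes in the count table. Counts of them set against all genes are therefore descriptions and not independent tests. All 9 passed the filter on low counts, which kept 12559 genes for testing.

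Organoids were grown from small intestinal crypts of adult Atg16l1 fl/fl mice without Cre and of Atg16l1ΔIEC mice, in which villin-cre deletes the floxed Atg16l1 gene in the intestinal epithelium. Both genotypes carry the floxed allele. Cultures were left untreated or were given IL-22 at 10 ng/ml for 24 h. RNA was sequenced from 16 cultures, 4 in each of the 4 combinations of genotype and treatment. The labels number 2 organoid lines per genotype, 1293 and 1294 for fl/fl and 1290 and 1292 for ΔIEC, and each line gave 2 cultures per treatment. Cultures are listed below with the first line of a genotype as replicates 1 and 2 and the other line as replicates 3 and 4. With 2 lines per genotype, a difference between genotypes and a difference between lines cannot be told apart, and p-values measure the spread between cultures.

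IL-22 is made by lymphoid cells and acts on epithelial cells, which carry its receptor. The receptor pairs IL-22R1, encoded by Il22ra1, with IL-10R2, encoded by Il10rb, which several other class II cytokines share. Receptor-bound JAK1 and TYK2 then phosphorylate STAT3, which enters the nucleus and switches on antimicrobial and repair genes, and SOCS3 in turn restrains the kinases.

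Each culture had 2135000 to 5574860 counts on genes, and levels are given as CPM, counts scaled to a common library size after TMM normalization. The check of the genotype was Atg16l1 itself, which averaged 40.2 ± 7.24 CPM (SD, n = 4) without IL-22 and 45.0 ± 6.33 CPM with it in the fl/fl groups, and 2.67 ± 1.20 and 1.84 ± 2.76 CPM in the ΔIEC groups. All 7 epithelial markers were detected, with a summed level of 5981 to 11180 CPM over the cultures. Ptprc, the pan-leukocyte marker, had at most 1 count in any culture, and the 11 stromal markers summed to 1.62 to 6.80 CPM. Of 16 immune markers 4 passed the filter, and their list summed to 17.9 to 45.3 CPM. Kit, with group means of 6.12 to 23.2 CPM, and Csf1r, with 7.66 to 9.63 CPM, were the highest of this list in every group. In bulk RNA, fewer cells of a type and less RNA per cell cannot be told apart.

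The first question was whether IL-22 changed the transcripts of its own pathway. Relative to untreated organoids of the same genotype, 5 of the 9 genes rose with IL-22 and none fell, in fl/fl and again in ΔIEC organoids, and they were the same 5 genes: Socs3, Stat3, Pim1, Il22ra1 and Jak2. Across all tested genes 10.6% rose and 10.2% fell in fl/fl, and 9.83% rose and 7.65% fell in ΔIEC organoids at the same threshold, an adjusted p under 0.01 in edgeR's quasi-likelihood test. The median log2 fold change of the 9 genes was 0.37 in fl/fl and 0.56 in ΔIEC organoids, against -0.045 and -0.0073 over all genes. Every IL-22–treated culture lay above every untreated culture for 5 of the 9 genes in fl/fl and for 7 of 9 in ΔIEC organoids, a pattern seen for 15.4% and 14.1% of all genes.

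**Figure D1:**
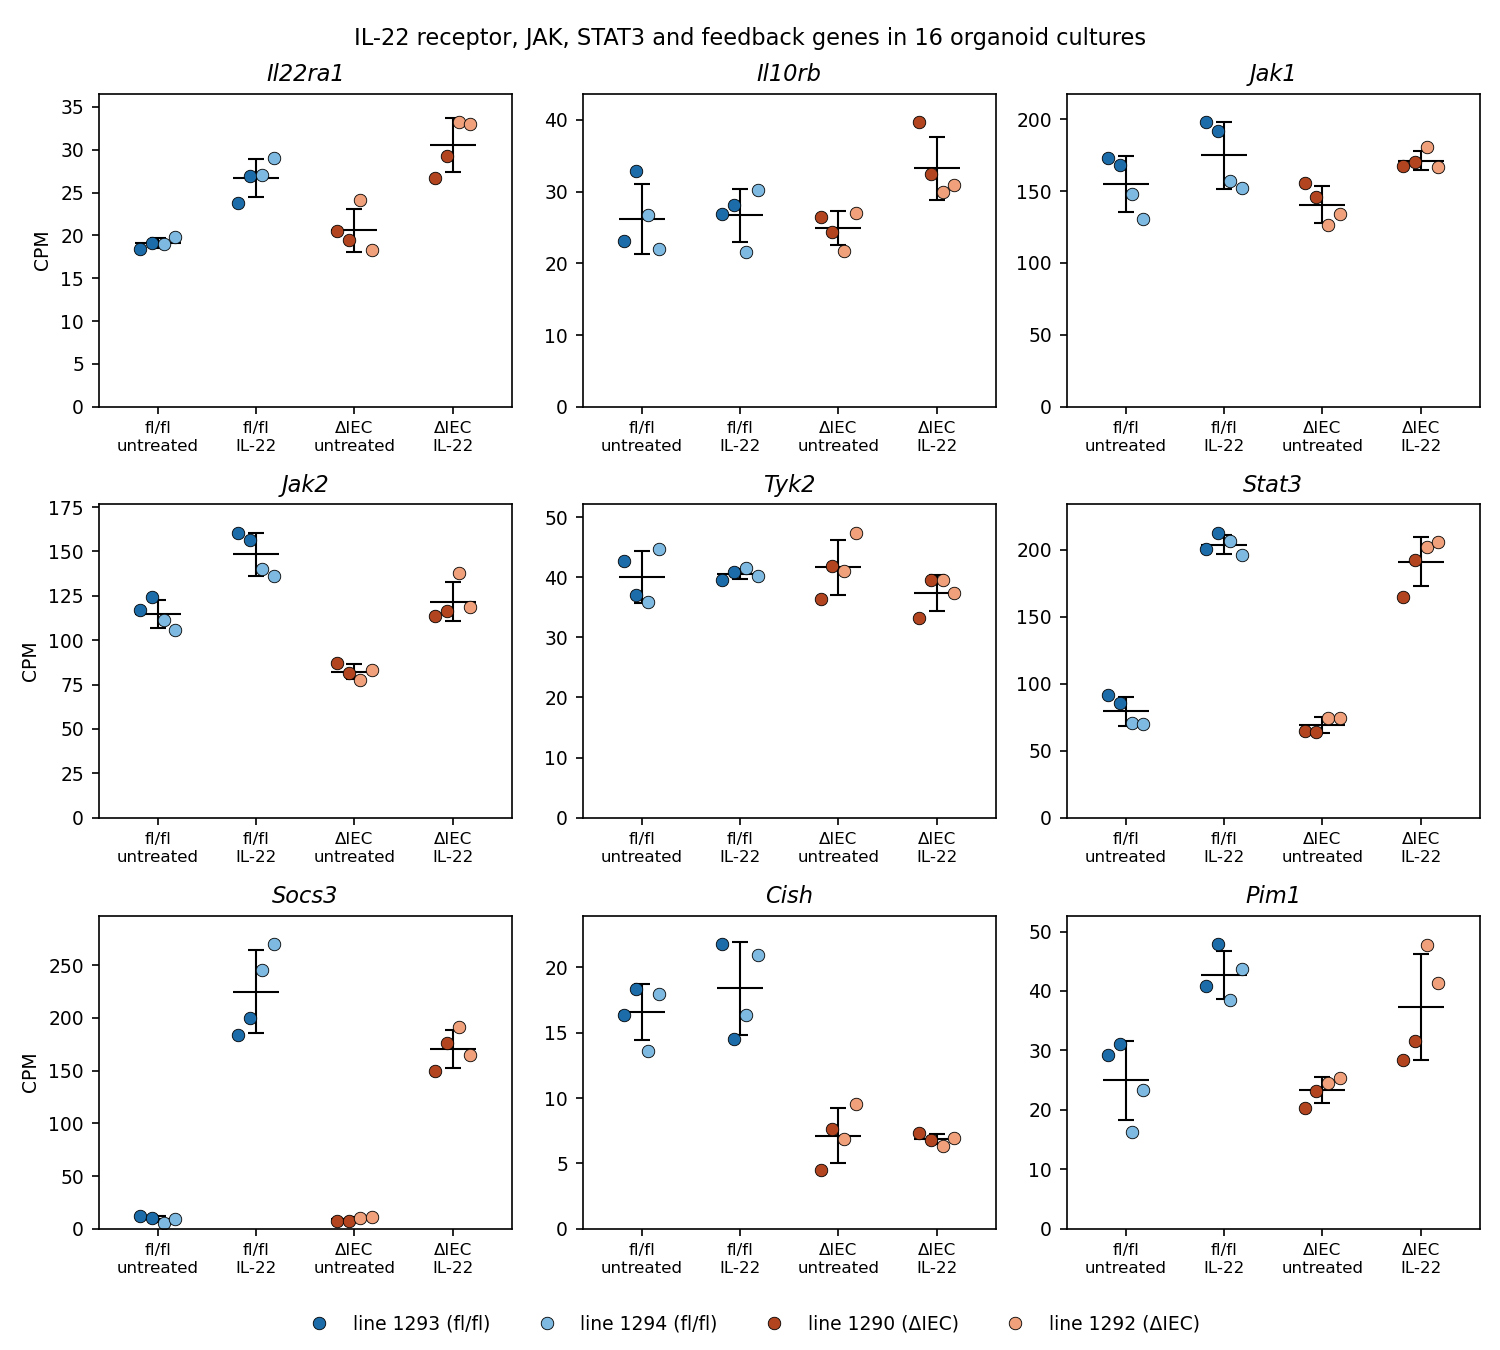
Level of each of the 9 genes in CPM (vertical axes from 0, scaled per panel) in every culture, by genotype and treatment. Points are single cultures coloured by organoid line, and bars give the mean and SD of 4 cultures. Socs3 and Stat3 separated treated from untreated cultures in both genotypes, and Cish separated the genotypes.

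Il22ra1 (chromosome 4, 135728172 to 135752140, plus strand, GRCm38 and GENCODE M21 as for all positions) encodes the chain that gives epithelial cells their response to IL-22, and its transcript rose modestly. It was at 18.4, 19.1, 19.0 and 19.8 CPM in untreated and 23.8, 26.9, 27.0 and 29.1 CPM in treated fl/fl cultures. In ΔIEC organoids it was at 20.5, 19.4, 24.1 and 18.3 CPM untreated and 26.7, 29.3, 33.2 and 33.0 CPM with IL-22. The treated cultures were above all untreated ones in both genotypes. The changes were 1.40-fold (log2 0.49 ± 0.12, SE worked back from the test's F statistic, adjusted p = 0.00298) and 1.49-fold (log2 0.58 ± 0.12, adjusted p = 0.000716). The first had an adjusted p of 0.0115 without replicate 4 of the treated fl/fl group, 0.0130 with no filter on low counts, 0.0307 without line 1293 and 0.0966 without line 1294. The second had 0.0127 without line 1290 and 0.0669 without line 1292.

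Il10rb (chromosome 16, 91406164 to 91425834, plus strand), the shared chain, did not pass the threshold. In fl/fl organoids it was at 23.1, 32.9, 26.7 and 21.9 CPM untreated and 26.9, 28.0, 21.6 and 30.3 CPM with IL-22, so that the groups overlapped. In ΔIEC organoids it was at 26.4, 24.4, 21.7 and 27.0 CPM untreated and 39.7, 32.4, 29.9 and 31.0 CPM with IL-22, and these groups did not overlap. The log2 change was 0.016 (95% interval -0.29 to 0.32) in fl/fl and 0.41 (0.10 to 0.71, adjusted p = 0.0414) in ΔIEC organoids. An exact two-sided permutation test of 4 against 4 gives its smallest p, 0.0286, whenever groups do not overlap. For the ΔIEC cultures it therefore added nothing to that statement.

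Of the kinases, Jak2 passed the test in both genotypes. Jak2 (chromosome 19, 29251828 to 29313080, plus strand) signals for several cytokine and hormone receptors. It was at 117, 125, 112 and 106 CPM in untreated and 160.4, 157, 140 and 136 CPM in treated fl/fl cultures. In ΔIEC organoids the values were 87.2, 81.5, 77.6 and 83.1 CPM and, with IL-22, 114, 117, 138 and 119 CPM. IL-22–treated cultures were above untreated ones throughout, by 1.29-fold in fl/fl (log2 0.37 ± 0.08, adjusted p = 0.00178) and 1.48-fold in ΔIEC organoids (log2 0.56 ± 0.08, adjusted p = 4.2e-05). The fl/fl call ended without line 1293 (adjusted p 0.0205) or line 1294 (0.0169), and the ΔIEC call without line 1292 (0.0270).

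Jak1 (chromosome 4, 101152367 to 101265282, minus strand), a kinase bound to IL-22R1, did not pass the threshold in either genotype. It was at 173, 168, 148 and 131 CPM untreated and 198, 192, 157 and 152 CPM with IL-22 in fl/fl, and at 156, 146, 127 and 134 CPM untreated and 167, 170, 181 and 166 CPM with IL-22 in ΔIEC organoids. The fl/fl groups overlapped and the ΔIEC groups did not. The log2 change was 0.17 ± 0.10 (adjusted p = 0.214) in fl/fl and 0.28 ± 0.10 (adjusted p = 0.0457) in ΔIEC organoids. With the organoid line as a block the ΔIEC change passed the threshold (log2 0.28 ± 0.07, adjusted p = 0.00145, where 13.8% of all genes rose), and the fl/fl one did not (adjusted p = 0.0338). The ΔIEC change also passed in limma-voom with the line as a random effect (0.00842) and without line 1294 (0.00848). It did not pass with the cultures of a line summed, 2 against 2 (log2 0.29, adjusted p = 0.260), and it was 0.41 without line 1290 (adjusted p = 0.0742) and 0.13 without line 1292 (adjusted p = 0.653).

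Tyk2 (chromosome 9, 21104068 to 21131243, minus strand), the kinase bound to IL-10R2, showed no detectable change. It ranged from 35.8 to 44.7 CPM in untreated and 39.6 to 41.5 CPM in treated fl/fl cultures, and from 36.3 to 47.3 and 33.2 to 39.6 CPM in ΔIEC organoids. The log2 change with IL-22 was 0.013 (95% interval -0.19 to 0.22) and -0.14 (-0.35 to 0.074). The antisense gene 1700084C06Rik shares 554 exonic bases with Tyk2 and had 28 to 87 counts per culture. Whether reads were counted by strand is not stated, and without strand the reads of a gene and its antisense partner cannot be told apart where they overlap.

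Stat3 (chromosome 11, 100885098 to 100939540, minus strand) encodes the transcription factor that IL-22 activates, and it was itself raised. Untreated fl/fl cultures held 91.5, 86.0, 70.7 and 70.1 CPM and treated ones 201, 213, 207 and 196 CPM. In ΔIEC organoids the values were 64.6, 64.2, 74.8 and 74.8 CPM untreated and 165, 192, 202 and 206 CPM with IL-22. The groups did not overlap in either genotype. Stat3 rose 2.56-fold in fl/fl (log2 1.35 ± 0.09, adjusted p = 2.66e-09) and 2.77-fold in ΔIEC organoids (log2 1.47 ± 0.10, adjusted p = 8.47e-10). The opposite-strand gene Stat5a shares 72 exonic bases with it and had 12 to 36 counts per culture.

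Socs3 encodes a suppressor that binds the receptor and JAKs and is a classical STAT3 target. It lies on chromosome 11 at 117966079 to 117970047, on the minus strand. The RefSeq promoter window, 250 bases before to 50 after the annotated transcript start at chr11:117969317-117969616 on the minus strand of GRCm38.p6, is shown because Socs3 had the highest fold change of the 9 genes with IL-22. Capitals mark the match to TTCNNNGAA, the core letters that STAT dimers recognise, which read the same on both strands.
Socs3: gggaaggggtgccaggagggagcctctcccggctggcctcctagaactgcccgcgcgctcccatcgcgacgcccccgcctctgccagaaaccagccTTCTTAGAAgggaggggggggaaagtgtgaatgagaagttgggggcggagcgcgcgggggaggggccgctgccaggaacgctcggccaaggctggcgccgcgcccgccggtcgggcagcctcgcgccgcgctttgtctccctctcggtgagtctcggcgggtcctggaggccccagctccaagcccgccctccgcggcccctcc
The match began 154 bases before the RefSeq start. The window lies inside the GENCODE span of Socs3 given above, so the match is within that annotated gene. Of 32851 such windows in the mouse table, 8.30% hold these letters, so that a match is a description of the sequence and not a site of binding.

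In untreated fl/fl organoids Socs3 was at 12.3, 10.2, 5.89 and 9.36 CPM in the 4 cultures. With IL-22 it was at 184, 200.1, 245 and 270.0 CPM. In ΔIEC organoids it went from 7.78, 6.89, 10.1 and 10.8 CPM to 149, 176, 191 and 165 CPM. Treated and untreated cultures were far apart in both genotypes. The log2 fold change was 4.53 ± 0.17 (SE; 23.1-fold, adjusted p = 1.16e-13) in fl/fl and 4.31 ± 0.17 (19.8-fold, adjusted p = 4.58e-13) in ΔIEC organoids. By p-value Socs3 ranked 5 of 12559 genes in fl/fl and 6 in ΔIEC organoids. Within lines, the ratio of treated to untreated means was 17.1 in line 1293, 33.8 in line 1294, 22.2 in line 1290 and 17.1 in line 1292.

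Cish encodes a SOCS family protein best known as a target of STAT5, and of the 9 it was the gene that passed the test between genotypes at both treatments and in neither IL-22 comparison. It lies on chromosome 9 at 107296026 to 107302784, plus strand. Its RefSeq window at chr9:107296409-107296708 (GRCm38.p6, plus strand) is shown beside that of Socs3 because, of 9 windows searched for 8 of the 9 genes (all but Il10rb), these 2 held the letters TTCNNNGAA, in capitals.
Cish: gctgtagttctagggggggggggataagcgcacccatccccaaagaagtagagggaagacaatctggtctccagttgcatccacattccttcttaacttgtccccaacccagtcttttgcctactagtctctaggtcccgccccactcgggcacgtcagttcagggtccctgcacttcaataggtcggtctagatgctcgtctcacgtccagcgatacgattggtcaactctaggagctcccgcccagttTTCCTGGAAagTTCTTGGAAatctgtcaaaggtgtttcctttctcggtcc
It held 2 matches, the first at the RefSeq start and the second 11 bases after it. This window, too, lies inside the GENCODE span of its gene. Windows with at least 2 matches made up 0.457% of all windows.

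Cish was at 16.4, 18.4, 13.6 and 17.9 CPM in untreated and 21.8, 14.5, 16.3 and 20.97 CPM in treated fl/fl cultures. In ΔIEC organoids it was at 4.48, 7.63, 6.84 and 9.55 CPM untreated and 7.29, 6.82, 6.35 and 6.95 CPM with IL-22. Treated and untreated cultures overlapped in both genotypes, with a log2 change of 0.11 (95% interval -0.25 to 0.47) in fl/fl and -0.018 (-0.50 to 0.47) in ΔIEC organoids.

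Pim1 (chromosome 17, 29490753 to 29496112, plus strand) encodes a serine/threonine kinase that cytokines induce through STATs. It was at 29.2, 31.1, 16.3 and 23.3 CPM in untreated and 40.8, 47.9, 38.5 and 43.7 CPM in treated fl/fl cultures. In ΔIEC organoids untreated cultures had 20.3, 23.1, 24.5 and 25.3 CPM and treated ones 28.4, 31.5, 47.7 and 41.4 CPM. Treated cultures were all above untreated ones, with a wide gap between lines 1290 and 1292 under IL-22. The log2 fold change was 0.74 ± 0.17 (adjusted p = 0.00198) in fl/fl and 0.70 ± 0.17 (adjusted p = 0.00489) in ΔIEC organoids. The ΔIEC call ended without replicate 3 or 4 of the treated group (adjusted p 0.0250 and 0.0195) and without replicate 1 or 2 of the untreated group (0.0231 and 0.0155). It also ended without line 1290 (0.0159) and without line 1292 (0.229), and the fl/fl call without line 1294 (0.0576). The antisense gene Gm26885 shares 488 exonic bases with Pim1 and rose in ΔIEC organoids (log2 1.02 ± 0.25, adjusted p = 0.00464), with a value of 0.44 ± 0.23 (adjusted p = 0.159) in fl/fl.

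Il22ra1, Jak2 and Pim1 were not called in either genotype when the 2 cultures of a line were summed, 2 against 2, with adjusted p of 0.0513, 0.0640 and 0.0577 in fl/fl and 0.0296, 0.0159 and 0.0846 in ΔIEC organoids. All 7 epithelial markers had positive log2 changes with IL-22, as did 44.7% of all genes in fl/fl and 49.1% in ΔIEC organoids. Of the 7, 5 rose past the threshold in fl/fl and 1 in ΔIEC organoids, where 10.6% and 9.83% of all genes rose. Their median log2 change was 0.49 and 0.29. In fl/fl their summed level went from 6155 to 8265 CPM untreated to 9363 to 11180 CPM treated. In ΔIEC organoids it went from 5981 to 7498 CPM to 7133 to 9981 CPM. Of the 7 Paneth cell markers 2 rose in each genotype, against the same shares of all genes. The part of these markers in the rises of Il22ra1, Jak2 and Pim1 was not tested.

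**Figure D2:**
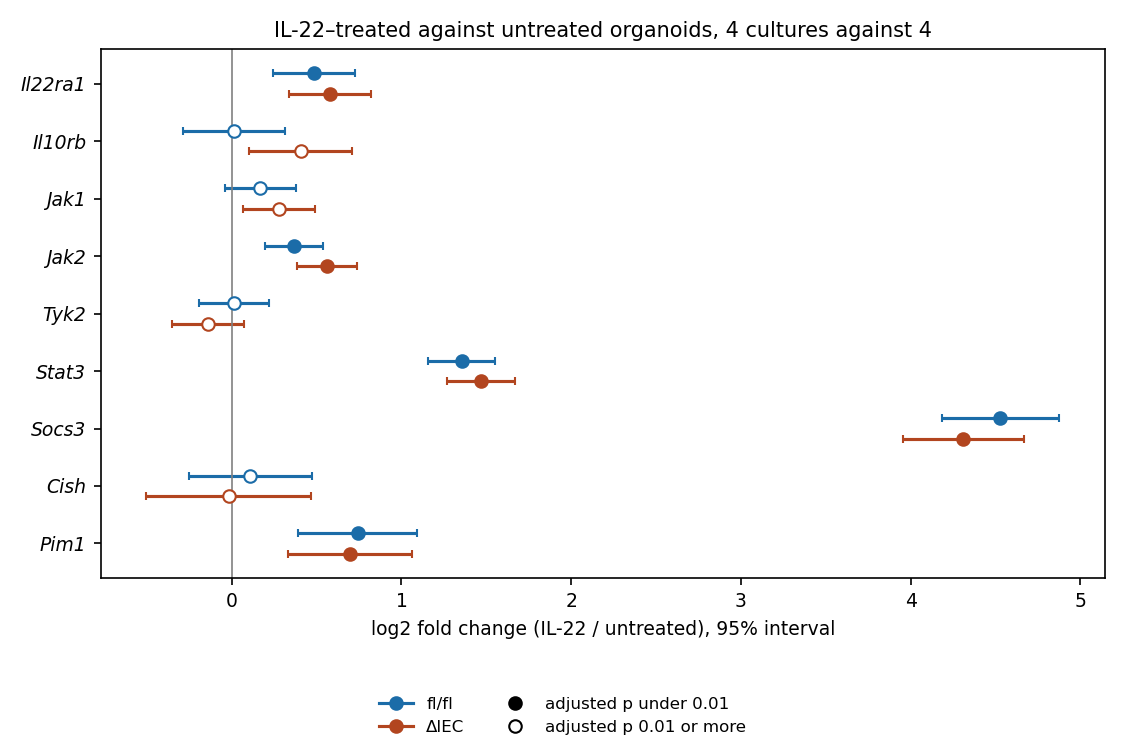
Log2 fold change of each gene with IL-22 (horizontal axis) in fl/fl (blue) and ΔIEC (orange) organoids, 4 cultures against 4, with 95% intervals. Filled points had an adjusted p under 0.01. Socs3 at 4.53 and 4.31 and Stat3 at 1.35 and 1.47 lie farthest from 0, while Tyk2 and Cish lie near it.

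The second question was whether the loss of Atg16l1 changed the response. For none of the 9 genes did the IL-22 effect differ between genotypes past the threshold in edgeR's interaction test, and 0 of the 9 had an unadjusted p under 0.05, where 912 of all 12559 genes did. At the threshold 2 of all tested genes were called, 0.0159%, and 15 in DESeq2. With the line as a block 56 were called (0.446%), none of them among the 9. The intervals still allow differences of some size. The interaction was -0.22 on the log2 scale for Socs3 (95% interval -0.77 to 0.33) and 0.11 for Stat3 (-0.17 to 0.40). For Jak2 it was 0.20 (-0.050 to 0.44) and for Il10rb 0.39 (-0.036 to 0.82), the highest of the 9. For Pim1 it was -0.044 (-0.55 to 0.46) and for Cish -0.13 (-0.73 to 0.48). Il22ra1 (0.092), Jak1 (0.11) and Tyk2 (-0.15) had intervals that include 0 as well.

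The third question was how the genotypes differed at each treatment. In untreated organoids 2 of the 9 genes, Cish and Jak2, were lower in ΔIEC than in fl/fl, where 5.98% of all genes were lower, and none was higher (3.78% of all genes). With IL-22, 1 of the 9, Cish, was lower past the threshold (9.84% of all genes) and none higher (9.91%). Every ΔIEC culture lay below every fl/fl culture for 2 of the 9 genes untreated, Cish and Jak2 (12.6% of all genes), and for 2 with IL-22, Cish and Tyk2 (14.2%).

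Cish differed most. The log2 difference was -1.27 ± 0.20 (0.414-fold, adjusted p = 0.000281) untreated and -1.40 ± 0.20 (0.379-fold, adjusted p = 4.01e-05) with IL-22, and the highest ΔIEC culture, at 9.55 CPM, was under the lowest fl/fl culture, at 13.6 CPM. Both ΔIEC lines were low: line 1290 averaged 6.05 and 7.05 CPM and line 1292 8.19 and 6.65 CPM, untreated and treated. Without line 1290 the untreated difference was -1.04 with an adjusted p of 0.0167. With the cultures of each line summed, 2 against 2, it was -1.28 with an adjusted p of 0.0243. The antisense gene Gm17041 shares 479 exonic bases with Cish and was at 4.60 ± 0.85 CPM in untreated fl/fl and 2.64 ± 0.35 CPM in untreated ΔIEC organoids (log2 -0.83 ± 0.28, adjusted p = 0.0389).

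Jak2 was lower in untreated ΔIEC organoids, at 82.3 ± 3.99 CPM against 115 ± 7.93 CPM (SD, n = 4; log2 -0.48 ± 0.08, adjusted p = 0.000713), with no overlap between genotypes. This call ended without line 1292 (adjusted p 0.0131) or line 1293 (0.0165). It also ended with the cultures of each line summed, 2 against 2 (log2 -0.47, adjusted p = 0.0710). With IL-22 the groups met, and the difference of -0.28 ± 0.08 had an adjusted p of 0.0123. That value passed the threshold in DESeq2 (0.00747), with RLE scaling (0.00868) and with at least 10 counts in every culture (0.00760). It also passed without replicate 3 of the treated ΔIEC group (0.00337), without line 1292 (0.00956) and without line 1294 (0.00585).

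Socs3 after IL-22 was lower in ΔIEC than in fl/fl organoids on average, at 170.5 ± 17.7 against 225 ± 39.6 CPM, but the groups overlapped, and the log2 difference of -0.40 ± 0.12 did not pass the threshold (adjusted p = 0.0169). It passed with no filter on low counts (0.00155), without replicate 1 of the treated fl/fl group (0.00718) and without line 1293 (0.000663). Stat3 differed by -0.21 untreated (95% interval -0.41 to 0.0014) and -0.092 with IL-22 (-0.28 to 0.096). Tyk2 with IL-22 was lower in every ΔIEC culture by a margin that vanishes in rounding, the highest of these and the lowest fl/fl culture both being at 39.6 CPM (log2 -0.11 ± 0.10, adjusted p = 0.410). Il22ra1 differed by 0.10 (-0.15 to 0.36) untreated and 0.20 (-0.034 to 0.42) with IL-22.

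Some markers of Paneth cells, the antimicrobial cells at the crypt base, were lower in ΔIEC organoids. All 7 were tested, and 3 were lower untreated (5.98% of all genes) and 5 with IL-22 (9.84%). Lyz1 passed neither test (log2 -0.30, adjusted p = 0.0835, and -0.20, adjusted p = 0.220). Pla2g2a also passed neither, at -0.87 untreated and 0.37 with IL-22. The summed level of the 7 was 3168 to 4156 CPM in untreated ΔIEC against 5625 to 7967 CPM in untreated fl/fl organoids. With IL-22 it was 4002 to 4819 against 7135 to 9555 CPM, with none of the 7 at 0. Within this sum Defa24 averaged 3016 CPM in untreated fl/fl and 985 CPM in untreated ΔIEC organoids. Kit, from the immune list, was also lower in untreated ΔIEC organoids (log2 -0.69 ± 0.15, adjusted p = 0.00301) and fell with IL-22 in both genotypes (-1.29 and -1.22). The part of these shifts in the differences of Cish and Jak2 was not tested.

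**Figure D3:**
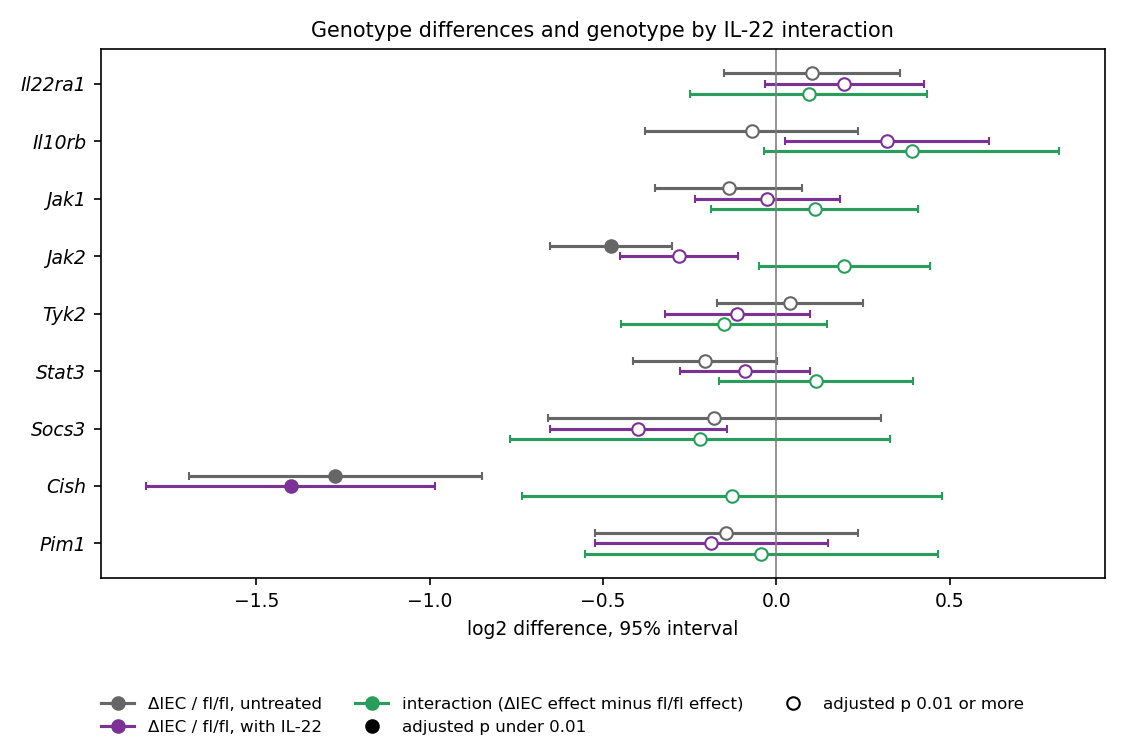
Log2 difference between ΔIEC and fl/fl organoids (horizontal axis), untreated (grey) and with IL-22 (purple), and the interaction of genotype and IL-22 (green), with 95% intervals for each of the 9 genes. Filled points had an adjusted p under 0.01. Cish lies at -1.27 and -1.40 and Jak2 at -0.48 untreated, and the interaction intervals include 0 for all 9 genes.

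To set the genes against each other, levels were scaled by exon length (RPKM, CPM per kilobase of exon). The length counted every base in an exon of any annotated transcript, 6419 bases for Cish and 2891 for Socs3, and the order depends on it. By CPM, Cish (16.6) was above Socs3 (9.43) in untreated fl/fl organoids. In untreated fl/fl organoids the kinases Jak2 (22.8 ± 1.58 RPKM, SD) and Jak1 (21.4 ± 2.69 RPKM) led, and their ranges overlapped. Stat3, Il22ra1, Pim1, Il10rb and Tyk2 followed from 8.35 down to 5.83 RPKM, each overlapping the next in that order. Socs3 (3.26 ± 0.92 RPKM) and Cish (2.58 ± 0.34 RPKM) were lowest and overlapped. With IL-22 Socs3 was the highest of the 9 in every culture, at 77.8 ± 13.7 RPKM in fl/fl and 59.0 ± 6.13 RPKM in ΔIEC organoids. Stat3 then reached 21.4 and 20.1 RPKM, overlapping Jak1 in fl/fl but not in ΔIEC organoids. In untreated ΔIEC organoids Jak1 (19.4 ± 1.79 RPKM) stood above Jak2 (16.4 ± 0.79 RPKM) with no overlap. Cish was lowest in both ΔIEC groups, at 1.11 and 1.07 RPKM.

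**Figure D4:**
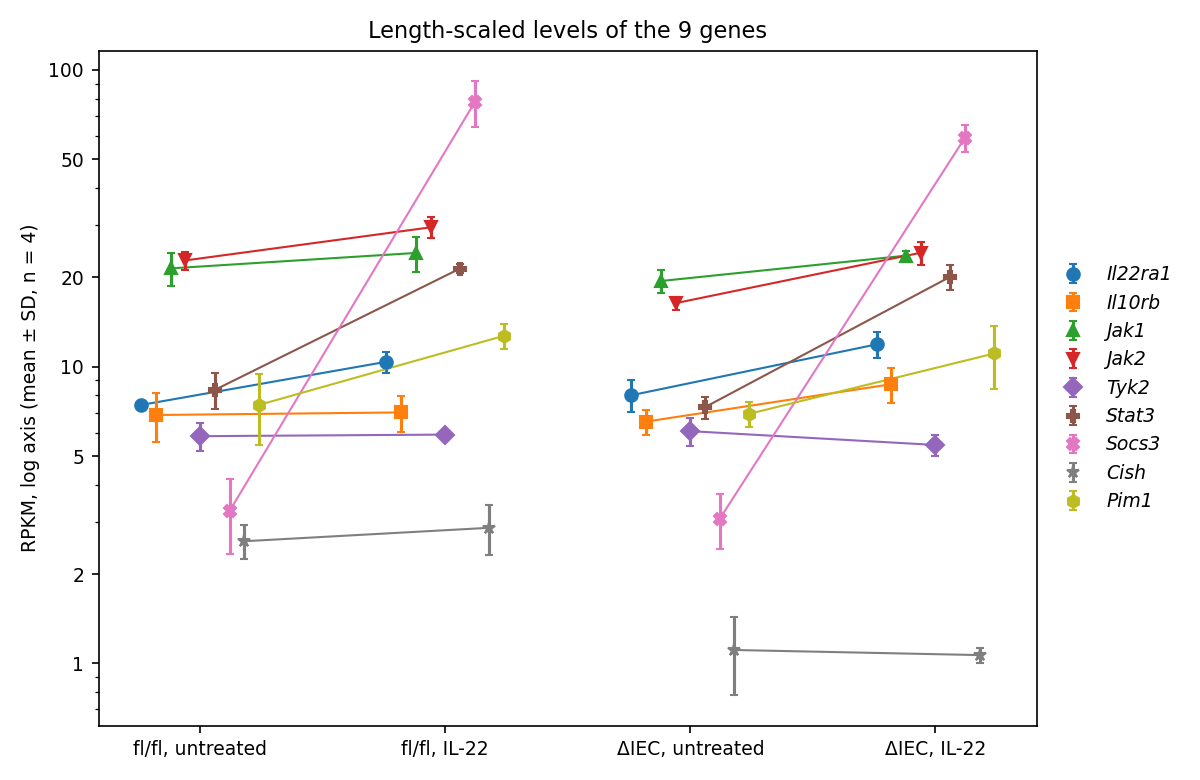
Level of each gene per exon length (RPKM, logarithmic axis) in the 4 groups, as mean and SD of 4 cultures, with lines joining untreated and treated means of a genotype. Socs3 moved from the eighth place to the first in both genotypes, and Cish lay at 1.11 and 1.07 in ΔIEC organoids.

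Other genes of the pathway were taken as lists, written with earlier results of these data known. Their counts, those of the STAT3 targets included, are therefore descriptions and not independent tests. Over all tested genes, 10.6% rose and 10.2% fell with IL-22 in fl/fl, and 9.83% rose and 7.65% fell in ΔIEC organoids. Of 16 further receptor chains of class II and gp130 cytokines 8 were tested, and 2 rose and 1 fell in fl/fl while 2 rose in ΔIEC organoids. Osmr, the oncostatin M receptor, had at most 1 count in any untreated culture and 11.3 ± 2.70 CPM in treated fl/fl and 8.26 ± 6.40 CPM in treated ΔIEC organoids. Against a floor of 3 counts per culture the log2 change of the group mean was at least 3.58 and 3.08. Single treated ΔIEC cultures ranged from 2.27 to 14.5 CPM (8 to 48 counts), so this bound does not hold for each culture. Il6st, the shared gp130 chain, rose by 0.45 ± 0.09 and 0.56 ± 0.09. Ifngr2, a chain of the interferon-γ receptor, fell by 0.44 in fl/fl (adjusted p = 0.00141) and had -0.19 ± 0.10 (adjusted p = 0.145) in ΔIEC organoids. Il10ra and Il20ra had 0 counts in every culture, and Il22ra2, the soluble decoy receptor, at most 1. The list's median log2 change was 0.30 in fl/fl and 0.057 in ΔIEC organoids.

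Of 8 other JAK and STAT genes with the partner Irf9, 7 were tested, and Jak3 and Irf9 rose in both genotypes. Jak3, a kinase known from lymphocytes, went from 16.1 ± 2.22 to 75.4 ± 11.4 CPM in fl/fl and from 8.03 ± 1.63 to 48.6 ± 18.2 CPM in ΔIEC organoids, with log2 changes of 2.23 ± 0.21 (adjusted p = 1.12e-07) and 2.65 ± 0.24 (adjusted p = 9.24e-08). Irf9, the DNA-binding part of an interferon-stimulated complex, rose by 1.01 ± 0.16 and 0.92 ± 0.15. Stat4 had 0 counts throughout. The median over the list was 0.057 and 0.32.

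Among 16 further SOCS genes and inhibitors of the pathway, 15 were tested. Of these 2 rose in fl/fl and 1 in ΔIEC organoids, against 10.6% and 9.83% of all genes. Socs6 rose in both genotypes, by 0.92 and 0.64 on the log2 scale. Ptpn1, a phosphatase that acts on JAK2 and TYK2, rose in fl/fl (0.46 ± 0.12, adjusted p = 0.00426) and had 0.33 ± 0.11 (adjusted p = 0.0327) in ΔIEC organoids. It was higher in untreated ΔIEC than fl/fl organoids (0.50 ± 0.12, adjusted p = 0.00525), where Socs2 was lower (-0.55 ± 0.13, adjusted p = 0.00564). Socs7 passed no IL-22 test (-0.053 and 0.29). Socs1, the closest relative of Socs3 in function, was under the filter with 1 to 16 counts per culture and was not tested. Its mean was 0.90 CPM untreated and 2.63 CPM with IL-22 in fl/fl, and 0.74 and 3.33 CPM in ΔIEC organoids. The median log2 change of the tested genes in this list was -0.034 and 0.020. Of the other PIM kinases Pim3 rose 1.58 ± 0.11 and 1.81 ± 0.12, while Pim2 had 0.071 ± 0.24 and -0.063 ± 0.24.

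Of 24 known STAT3 target genes outside the 9, 19 were tested. With none lower, 13 rose in fl/fl (10.6% of all genes) and 14 in ΔIEC organoids (9.83%). Their median log2 change was 1.49 and 1.39. The antimicrobial lectins Reg3b (10.53 ± 0.18 and 11.22 ± 0.18) and Reg3g (9.66 ± 0.20 and 10.09 ± 0.20) and the fucosyltransferase Fut2 (6.34 ± 0.27 and 8.30 ± 0.29) had the smallest p-values. With IL-22, 6 of the 19 were higher (9.91% of all genes) and 1 lower (9.84%) in ΔIEC than in fl/fl organoids. Fut2 was then at 100.1 ± 10.2 CPM in fl/fl and 203 ± 40.6 CPM in ΔIEC organoids. Untreated, Fut2 had 1 to 7 counts per culture in fl/fl and 0 to 4 in ΔIEC organoids. Its log2 changes thus rest on a baseline near the floor of 3 counts. For none of the 19 did the IL-22 effect itself differ between genotypes past the threshold (0 called). Of 8 tuft cell markers 3 were tested, and Avil rose in both genotypes (1.82 ± 0.31 and 1.81 ± 0.29), with Trpm5 at -0.37 ± 0.30 and -0.35 ± 0.31.

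The genes whose level followed each of the 9 most closely were named by the Pearson correlation of log2 CPM over the 16 cultures, which share treatment groups and lines, so that the values describe these cultures. Stat3 was nearest to Pim3 (r = 0.996), Atp10b (0.993) and Trim15 (0.992). The nearest to Socs3 were Stat3 (0.989), Reg3b (0.989) and B3galt5 (0.988). Pim1 went with Cttn (0.977), AI661453 (0.967) and 2010109I03Rik (0.967), and Il22ra1 with Adar (0.964), Gm15947 (0.953) and Gata5 (0.947). Jak2 was closest to Aldh1l1 (0.974), Bnip3 (0.967) and Arfgap3 (0.959), and Cish to Gm12454 (0.949), Tcf24 (0.946) and Adamtsl5 (0.944). Weaker likeness was found for Jak1 with Kmt2c (0.913), Wnk1 (0.909) and Smg1 (0.900), for Il10rb with Serinc1 (0.818), Tmem19 (0.817) and Zfp273 (0.816), and for Tyk2 with Tbc1d17 (0.793), Fzr1 (0.784) and Foxp4 (0.781). By Spearman's correlation none of the 3 nearest genes stayed for Il10rb, Jak2, Stat3, Socs3 or Cish, and 1 stayed for Il22ra1 and for Tyk2. Among the 9 themselves the correlation was 0.88 for Il22ra1 with Socs3 and 0.79 for Jak1 with Jak2, and 0.11 for Cish with Socs3.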

How the data were processed

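RNA was measured in 16 organoid cultures, and groups and lines were taken from the sample labels. Per the methods and the processing notes, the authors used cutadapt for trimming, TopHat2 for alignment to GRCm38 and HTSeq for counting. The deposited values are raw gene counts. The kit is TruSeq RNA v2 in the labels and, in the methods, a stranded total RNA protocol, and the strand setting of the counting is not given in the sources used here. Reads on genes were 36.3% to 38.3% of those in the table. Another 38.0% to 40.1% fell on no gene and 21.5% to 24.2% were not uniquely placed, and these lines were left out. Of 49585 genes, 49326 (99.5%) were matched to a symbol in GENCODE M21.

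Counts were tested with edgeR 4.0.16 in R 4.3.3 (filterByExpr, TMM, 1 quasi-likelihood fit with a mean per group), two-sided, with p adjusted by Benjamini-Hochberg over 12559 genes, at an adjusted p under 0.01. Log2 CPM for correlations used a prior count of 2. Each SE is the absolute log2 change divided by the square root of edgeR's F statistic, and is not a fitted SE. The 95% intervals used this SE and the t distribution on edgeR's degrees of freedom. The script was tested on simulated data with independent cultures and no line effect, so that test could not check the likeness of cultures within a line. Counting error is the only error that a floor of 3 counts covers. The alternatives were DESeq2 1.42.0, RLE scaling, other filters, only the groups compared, cultures of a line summed, the line as a block or, in limma 3.58.1 voom, a random effect, and the omission of each culture or line.

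The labels give the line of each culture. Each group was centred on its mean gene by gene, and treated cultures were correlated with untreated ones of the same genotype. Same-line pairs deviated together, with correlations across genes of 0.26 to 0.44 in fl/fl and 0.06 to 0.32 in ΔIEC organoids. Pairs of different lines had -0.43 to -0.22 and -0.35 to -0.08, but centring forces negative values there once same-line values are positive. Lines are nested in genotype, so a block exists for the effects of IL-22 and their difference only. Named were all 9 genes, the 3 genes with the smallest IL-22 p of each list, and the 3 most correlated genes. For the marker lists, given as counts and sums, only some of the genes so picked were named. A gene that this rule names is not reported here. Socs1, Socs2, Il10ra, Il20ra, Il22ra2, Stat4, Ptprc, Lyz1 and Defa24 were named after their values were seen. The genes and lists were chosen with earlier results of these data known. Promoter sequences are from RefSeq (GRCm38.p6).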

Additional observations from a re-analysis of the deposited data

How the results depend on the processing

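The IL-22 effects of Socs3 and Stat3 kept their direction and stayed past the threshold under 116 of 116 alternative settings. Not all of these were separate tests, since a laxer threshold applied to the main fit is counted among them. Others left out cultures or lines of the genotype not compared, which could change an effect only little. Over all comparisons of the 9 genes, 1196 of 1278 settings kept direction and side of the threshold. That count includes changes not called in the main fit, which kept their side by staying uncalled. With the organoid line as a replicate block 5 of the 9 genes were called in fl/fl, 6 in ΔIEC and 0 in the interaction. Among the 9 no call changed but that of Jak1 in ΔIEC organoids. Of all 12559 genes the block called 3837, 3198 and 56, against 2608, 2195 and 2 in the main fit. The cause of the changes was not tested.

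With the cultures of a line summed, 2 against 2, fewer of the 9 were called: 2 and 2 for IL-22 in fl/fl and ΔIEC organoids, 0 for the untreated genotypes. For the genotypes with IL-22 the count was 2 in DESeq2, with RLE, with no filter and with at least 10 counts, and 3 at an adjusted p under 0.05. Leaving out a culture or line gave 2 to 5 and 2 to 6 for IL-22 in fl/fl and ΔIEC, 1 to 2 untreated and 1 to 2 with IL-22.

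Over all genes the calls were 2608 in fl/fl (543 with cultures summed, 4057 at 0.05), 2195 in ΔIEC (635 and 3500) and 2481 between genotypes with IL-22 (188 and 4168). Untreated they were 1226, with 10 summed, 2559 at 0.05, 1840 with no filter and 777 in limma-voom. The interaction had 2, with 0 summed, 1 with RLE or at least 10 counts, 5 in limma-voom, 15 in DESeq2, 56 with the block and 80 with no filter. Leaving out cultures or lines gave 1083 to 2796, 913 to 2491, 950 to 2672, 445 to 1639 and 0 to 4.

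Signs turned for values that had not been called. Cish with IL-22 in ΔIEC organoids was at 0.043 in limma-voom and from -0.30 to 0.19 over the left-out cultures and lines. Over the same omissions the log2 IL-22 effect in fl/fl was -0.068 to 0.16 for Il10rb and -0.028 to 0.072 for Tyk2. The interaction was -0.045 to 0.17 for Il22ra1, -0.058 to 0.25 for Jak1, -0.071 to 0.25 for Stat3, -0.71 to 0.21 for Socs3, -0.41 to 0.061 for Cish and -0.33 to 0.14 for Pim1. Untreated genotype differences were -0.17 to 0.074 for Il10rb, -0.27 to 0.023 for Jak1, -0.026 to 0.13 for Tyk2, -0.39 to 0.096 for Socs3 and -0.39 to 0.18 for Pim1, and with IL-22 -0.19 to 0.12 for Jak1 and -0.53 to 0.055 for Pim1.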
